A study of Mus musculus with 8 samples.

Results

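The peaks described here are the ERRα binding sites that were centred in a long terminal repeat (LTR) element. A peak was counted when its detailed annotation named a repeat of the class LTR and its main annotation was not a promoter. Of 126927 peaks in 4 lists, 10327 met this rule. They numbered 1939 of 25427 peaks in muscle of WT mice, 4564 of 50647 in ERRα 3SA muscle, 1790 of 21813 in liver of WT mice and 2034 of 29040 in that of ERRα 3SA mice. When centres within 300 bp of each other were merged across the lists, the 10327 peaks fell into 9454 loci with 503 repeat names.

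ERRα is an orphan nuclear receptor that switches on genes of mitochondrial respiration and fatty acid oxidation in muscle and liver. It binds as a monomer or dimer to the ERR response element (ERRE), whose letters are TCAAGGTCA. LTR elements are the remains of retroviruses that entered the germ line. Each LTR is a promoter and enhancer copied to many places in the genome, so one binding site in an ancestral LTR can occur at many loci. In the mouse the ERVK family includes the young intracisternal A particles (IAP) as well as most RMER and many RLTR elements. The ERVL-MaLR family holds the MT, ORR1 and MLT1 elements, the ERVL family holds the MT2 elements, and ERV1 is related to gammaretroviruses.

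ChIP with an ERRα antibody was carried out on liver or on gastrocnemius and soleus muscle of male mice aged 2 to 3 months on the C57BL/6N background. WT mice were compared with ERRα 3SA mice, phospho-mutants whose ERRα cannot be phosphorylated at certain N-terminal serines. Each list came from 1 ChIP library, set against the input DNA of the same genotype and tissue, and tissue from 2 mice (liver) or 5 mice (muscle) was pooled. No group had a replicate, so no difference between genotypes or tissues could be tested, and the intervals given are 95% Wilson intervals for counting error only. Depth was unknown, since the lists hold no read counts. The lists hold no sequence of the mutated codons, so the genotype labels were not checked.

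The peak score is a whole number with a lowest value of 30 in every list, and single peaks were compared between lists by rank. Where a fixed score is used as a cut-off in several lists, the same score need not mean the same strength of signal in each. Peaks lay within 20 kb of the start site of 8 and 9 of 10 skeletal muscle marker genes in WT and ERRα 3SA muscle, against 6 and 5 in the liver lists. The corresponding counts for 10 hepatocyte marker genes were 2 and 5 in muscle and 5 and 6 in liver, with no peak near Alb in any list. Among peaks with a score of at least 100 the muscle markers numbered 4 and 6 in muscle and 1 and 2 in liver, and the liver markers 0 and 0 in muscle and 2 and 2 in liver.

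The sequences below are those in which the ERRE recurred at LTR loci. They were read from GRCm38 (mm10) on the strand that carries TCAAGGTCA, which is in capitals, with 10 bases to either side in lower case. MT2C_Mm, MT2B2 and IAPEz-int are the repeat names with the most ERRE loci, and the loci with the best rank in any list are shown. MT2C_Mm is an LTR of the ERVL family.
MT2C_Mm chr1:93030503-93030531, strand +: accactgaatTCAAGGTCAtctggaatta
MT2C_Mm chr16:37540763-37540791, strand -: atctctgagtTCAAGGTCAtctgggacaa
MT2C_Mm chr2:25151048-25151076, strand +: atctctgagtTCAAGGTCAtctggggtta
MT2C_Mm chr1:171103643-171103671, strand +: tctccagagtTCAAGGTCAtctgggacaa
The first of these lay in an intron 24068 bp from the start site of Aqp12, an aquaporin gene, at rank 138 of 21813 in WT liver (0.633% of the list). The second lay in an intron, 999 bp from the start site of Rabl3. MT2B2 is a related ERVL LTR.
MT2B2 chr3:96281947-96281975, strand +: atctctgagtTCAAGGTCAgccaaggaca
MT2B2 chr13:35148880-35148908, strand +: atctctgagtTCAAGGTCAgccaaggaca
MT2B2 chr4:133215657-133215685, strand -: ggcaaggagtTCAAGGTCAgcctgggaca
MT2B2 chr6:88024867-88024895, strand +: agatctgagtTCAAGGTCAacctaggaca
The first MT2B2 site was intergenic, 12133 bp from Fcgr1, the high-affinity receptor for immunoglobulin G, at rank 1077 of 50647 in ERRα 3SA muscle. IAPEz-int is the internal, protein-coding part of IAP elements of the ERVK family.
IAPEz-int chr14:21361626-21361654, strand +: gcagtcggttTCAAGGTCAtagtgcacct
IAPEz-int chr4:61732005-61732033, strand -: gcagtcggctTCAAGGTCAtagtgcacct
IAPEz-int chr12:72639404-72639432, strand +: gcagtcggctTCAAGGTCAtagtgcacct
IAPEz-int chr3:46464246-46464274, strand -: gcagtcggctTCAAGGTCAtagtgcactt
The first IAPEz-int site lay in an intron, with the start site of Kat6b, a histone acetyltransferase gene, nearest at -138131 bp, and the other 3 were intergenic.

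Within MT2C_Mm and IAPEz-int the flanks of the ERRE were alike. Over the 20 flanking bases, the mean identity between pairs of loci was 84.97% for 55 MT2C_Mm loci and 93.3% for 26 IAPEz-int loci. It was 66.6% for 34 MT2B2 loci and 27.3% for 16 loci of MTD, an ERVL-MaLR LTR that is much more common. Over all 486 LTR loci whose window held the ERRE with full flanks, the mean pair identity was 31.8%. The ERRE loci of MTD had no flank in common, whereas 14 MT2C_Mm loci had the same 20 flanking bases as the most common base at each position.

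The ERRE windows that ranked highest as a percent of the length of their list were centred in MT2A, LTR16A and RLTR10C elements. Whether the ERRE itself lay inside the named element or in sequence beside it was not determined, here or at the other LTR loci. The 300 bp around the interval centre of these 3 are given below on the plus strand, with each ERRE or its reverse complement in capitals.
MT2A chr11:70626681-70626980, strand +: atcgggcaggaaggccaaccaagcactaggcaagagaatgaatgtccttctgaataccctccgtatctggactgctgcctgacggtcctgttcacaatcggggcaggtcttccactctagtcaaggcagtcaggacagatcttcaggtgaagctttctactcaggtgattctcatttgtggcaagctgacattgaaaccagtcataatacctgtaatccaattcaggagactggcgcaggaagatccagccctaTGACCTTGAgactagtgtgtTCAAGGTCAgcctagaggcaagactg
LTR16A chr15:97850792-97851091, strand +: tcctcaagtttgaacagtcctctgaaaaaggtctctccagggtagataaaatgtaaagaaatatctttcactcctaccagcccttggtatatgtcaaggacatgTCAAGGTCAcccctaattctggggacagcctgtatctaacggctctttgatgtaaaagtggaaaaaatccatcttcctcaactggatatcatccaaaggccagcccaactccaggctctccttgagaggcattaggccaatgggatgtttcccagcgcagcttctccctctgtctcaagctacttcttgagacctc
RLTR10C chr1:178344262-178344561, strand +: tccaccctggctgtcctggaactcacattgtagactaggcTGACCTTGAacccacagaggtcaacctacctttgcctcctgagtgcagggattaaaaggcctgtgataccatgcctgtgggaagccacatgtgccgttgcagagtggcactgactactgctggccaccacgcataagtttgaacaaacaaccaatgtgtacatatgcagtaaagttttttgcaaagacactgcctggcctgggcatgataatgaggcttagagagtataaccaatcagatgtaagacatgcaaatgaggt
The MT2A window was intergenic, -7636 bp from Chrne, the ε subunit of the muscle acetylcholine receptor, at rank 97 of 29040 in ERRα 3SA liver (0.334%). It held 2 copies of the ERRE on opposite strands. The WT liver peak at the same place, rank 151, was centred in a B1F element, a short interspersed repeat (SINE), and was therefore not an LTR peak. The LTR16A window lay -6439 bp from Hdac7, a class IIa histone deacetylase, at rank 110 of 25427 in WT muscle (0.433%). The RLTR10C window lay -6627 bp from Hnrnpu, a nuclear RNA-binding protein, at rank 286 of 50647 in ERRα 3SA muscle (0.565%).

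LTR-centred peaks made up 7.63% of all peaks in WT muscle (interval 7.31 to 7.96) and 9.01% in ERRα 3SA muscle. They made up 8.21% of the WT list and 7.004% of the ERRα 3SA list in liver. ERRα 3SA muscle held 2.35 times as many LTR-centred peaks as WT muscle (interval 2.23 to 2.48), where all peaks rose 1.99-fold in number and promoter peaks 1.25-fold. ERRα 3SA liver held 1.14 times as many as WT liver (interval 1.07 to 1.21), where all peaks numbered 1.33 times and promoter peaks 1.56 times those of WT. The LTR share was thus higher in the ERRα 3SA list in muscle and lower in liver. The ratio depended on list length. With the ERRα 3SA list cut to its highest-scoring peaks at the length of the WT list, it was 1.10 in muscle and 0.790 in liver. All peaks are then equal in number by construction, so these values restate the LTR shares. At either length the ratio for LTR-centred peaks was above that of all peaks in muscle and below it in liver.

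ERVK was the largest family in muscle, with 907 of 1939 LTR-centred peaks in WT (46.8%) and 2105 of 4564 in ERRα 3SA (46.1%). In liver it came to 664 of 1790 in WT (37.1%) and 637 of 2034 in ERRα 3SA (31.3%), below ERVL-MaLR in both lists. ERVL-MaLR numbered 678, 1729, 712 and 870 peaks in muscle of WT mice, ERRα 3SA muscle, WT liver and ERRα 3SA liver. In the same order ERV1 numbered 177, 360, 189 and 230 peaks and ERVL 173, 352, 213 and 286. The families with a question mark, Gypsy and unclassified LTR added 4, 18, 12 and 11. ERVK was the only one of the 4 main families that was not more numerous in the ERRα 3SA liver list than in WT, at 0.959 times with an interval of 0.861 to 1.07. In liver ERVL-MaLR and ERV1 each numbered 1.22 times and ERVL 1.34 times those of WT. All liver peaks numbered 1.33 times, which lay within the intervals of these 3 families. In muscle all 4 families were more numerous in ERRα 3SA, from 2.03 times for ERV1 and ERVL to 2.55 times for ERVL-MaLR. All muscle peaks numbered 1.99 times those of WT, which lay within the intervals for ERV1 and ERVL.

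**Figure D1:**
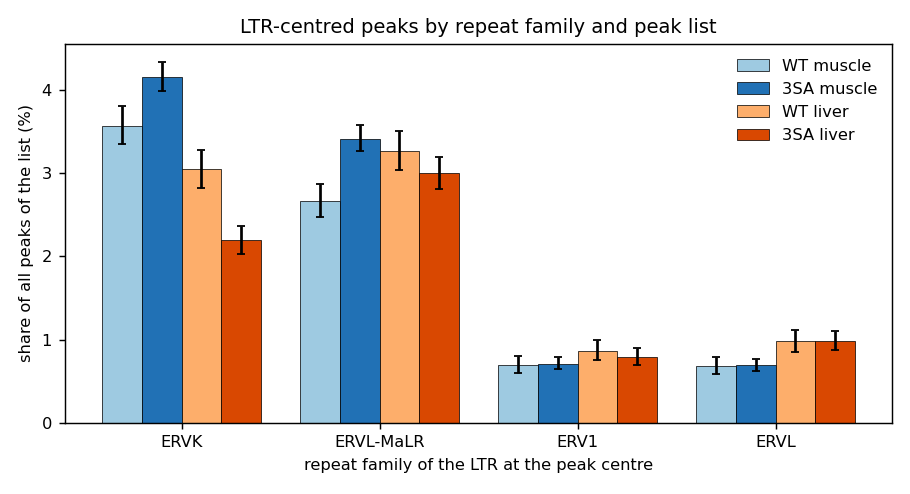
Share of all peaks of each list (y axis, percent) centred in LTRs of 4 repeat families (x axis), with 1 bar for each list and 95% Wilson intervals for counting error. ERVK is the tallest group in both muscle lists and is lowest in ERRα 3SA liver at 2.19%.

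By name, muscle was led by RMER elements, most of them of the ERVK family and some of ERVL and ERV1, which numbered 449 in WT and 1036 in ERRα 3SA (23.2% and 22.7% of LTR-centred peaks). RMER names made up 17.0% and 16.1% in the liver lists of WT and ERRα 3SA mice. ORR1 elements went from 11.8% and 14.1% in muscle to 16.4% and 18.3% in liver. IAP elements numbered 176 and 390 in WT and ERRα 3SA muscle, 9.08% and 8.55% of the LTR-centred peaks, and 101 and 84 in liver, 5.64% and 4.13%. Names that mark the internal part of an element accounted for 17.3% of LTR-centred peaks in muscle of WT mice, 16.0% in ERRα 3SA muscle, 17.3% in liver of WT mice and 15.5% in that of ERRα 3SA mice. Among ERV1 peaks that part was 47.5%, 46.1%, 36.5% and 37.4%.

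The 5 most frequent names in WT muscle were RMER17B with 95 peaks, MTD with 83, RMER13B with 68, MTC with 56 and ORR1E with 49. In ERRα 3SA muscle they were RMER17B with 196, MTD with 171, RMER13B with 154, MTC with 134 and MTA_Mm with 102. MTA_Mm, whose LTRs are known as promoters in oocytes, had 30 peaks in WT muscle, a ratio of 3.40 (interval 2.27 to 5.09). All muscle peaks had a ratio of 1.99, RMER17B and MTD 2.06 each, and RMER13B 2.26. MTD led both liver lists, with 82 peaks in WT and 74 in ERRα 3SA. In WT liver RMER17B and MTC followed with 45 each, MTA_Mm with 40 and ORR1E with 39. In ERRα 3SA liver ORR1F followed with 51, ORR1E with 49, MTC with 47 and MT2C_Mm with 41. RMER17B fell from 45 peaks in WT liver to 27 in ERRα 3SA liver in number, a ratio of 0.600 with an interval of 0.374 to 0.963. The ratio of all liver peaks was 1.33.

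The repeat names were checked by aligning the central 300 bp of all 9454 loci with each other. An alignment of at least 100 bp to another locus was found for 6607 loci, and the best one had the same repeat family for 97.5% of them and the same name for 73.1%. All 68 MT2C_Mm loci but 1 had such a hit, always to MT2C_Mm, at a median identity of 89.6%. Of 73 loci of MLT1D, an old element shared with other mammals, 4 had a hit and none to its own name. The centre base was in lower case in the reference, its mark for repeated or low-complexity sequence, in 42.9% to 47.6% of LTR-centred peaks against 17.7% to 22.4% of the other non-promoter peaks. Over the 21 chromosomes 36.4% of bases were in lower case. Most LTR-centred peaks thus lacked this mark at the centre, so it is a weak check of the names.

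Fewer LTR-centred peaks had high scores than peaks at large, although the median score in both muscle lists was 36 for LTR-centred and for other non-promoter peaks. A score of at least 100 was reached by 31 LTR-centred peaks in muscle of WT mice (1.60%), by 73 in ERRα 3SA muscle (1.60%), by 174 in liver of WT mice (9.72%) and by 263 in that of ERRα 3SA mice (12.9%). Over all peaks the share was 4.66% in muscle of WT mice, 5.14% in ERRα 3SA muscle, 17.3% in liver of WT mice and 20.6% in that of ERRα 3SA mice. Their median width was 380, 360, 346 and 343 bp in muscle of WT mice, ERRα 3SA muscle, WT liver and ERRα 3SA liver, against 435, 423, 412 and 414 bp for the other non-promoter peaks. Their median distance to the nearest start site was 40587 bp in muscle of WT mice, 43116.5 bp in ERRα 3SA muscle, 33071.5 bp in liver of WT mice and 27062 bp in that of ERRα 3SA mice. The other non-promoter peaks had medians between 17710 and 23503 bp. LTR-centred peaks were annotated as intergenic in 70.6%, 69.7%, 65.6% and 62.6% of cases in the same order of lists, and all others of them as intronic. ERVK peaks in muscle lay farthest from genes, at a median of 59342 bp in WT and 58667 bp in ERRα 3SA.

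The ERRE was present in the central 300 bp of 40 LTR-centred peaks in muscle of WT mice (2.06%), 116 in ERRα 3SA muscle (2.54%), 190 in liver of WT mice (10.6%) and 288 in that of ERRα 3SA mice (14.2%). Over all peaks the share was 3.92% in muscle of WT mice, 4.28% in ERRα 3SA muscle, 14.6% in liver of WT mice and 15.2% in that of ERRα 3SA mice. Windows of the same length 5 kb to either side of the LTR-centred peaks held it in 0.748%, 0.865%, 1.09% and 0.910% of cases. The same letters written backwards, ACTGGAACT, a control with the same base composition, were in 1.75%, 2.34%, 2.63% and 2.02% of LTR-centred peaks and in 0.387%, 0.515%, 0.726% and 0.639% of the windows 5 kb away. In muscle the control was thus nearly as frequent in LTR-centred peaks as the ERRE, and its share too exceeded that of the neighbouring sequence. It was concentrated in a few names, since of 221 merged loci that held it 120 were MTA_Mm and 38 MTB. In both muscle lists it exceeded the ERRE in ERVL-MaLR peaks (3.98% against 1.92% in WT). It was rarer than the ERRE in ERVK (0.662% against 1.21% in WT), ERV1 and ERVL peaks. The ERRE share in LTR-centred peaks was above that of the neighbouring sequence in every list, with intervals that did not overlap, and below that of all peaks in muscle of WT mice, ERRα 3SA muscle and WT liver. In ERRα 3SA liver its interval, 12.7 to 15.7, held the share of all peaks. Among ERRα 3SA liver peaks with scores of 30 to 39 the ERRE was in 7.35% of LTR-centred and 7.31% of other non-promoter peaks, and at 100 or more in 27.8% and 26.6%. In WT muscle the shares were 1.64% and 2.09% at 30 to 39, and 9.68% and 18.3% at 100 or more, where the interval for the 31 LTR-centred peaks, 3.35 to 24.9, held the share of the others. At 70 to 99 they were 4.35% and 16.5%, and the interval for the 46 LTR-centred peaks, 1.20054 to 14.5, lay below the share of the others. It also did so in ERRα 3SA muscle at 30 to 39 (1.68% against 2.22%) and at 40 to 49 (2.46% against 4.35%), and in WT liver at the same scores (5.83% against 7.65% and 9.20% against 13.0%).

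ERVL was the family with the highest ERRE share. It was 6.94% of 173 peaks in muscle of WT mice, 7.95% of 352 in ERRα 3SA muscle, 27.7% of 213 in liver of WT mice and 33.6% of 286 in that of ERRα 3SA mice. ERVK had the lowest share of the 4 families in every list, at 1.21%, 1.57%, 6.63% and 8.48%. Names starting with MT2 carried most of the ERVL result in liver, with the ERRE in 49 of 75 peaks in WT (65.3%) and 76 of 110 in ERRα 3SA (69.1%). The remaining ERVL peaks had it in 10 of 138 and 20 of 176. In muscle MT2 names numbered 27 in WT, 5 of them with the ERRE, and 66 in ERRα 3SA, 17 of them with it. Without the MT2 names the ERRE share of LTR-centred peaks was 8.22% of WT and 11.0% of ERRα 3SA peaks in liver.

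**Figure D2:**
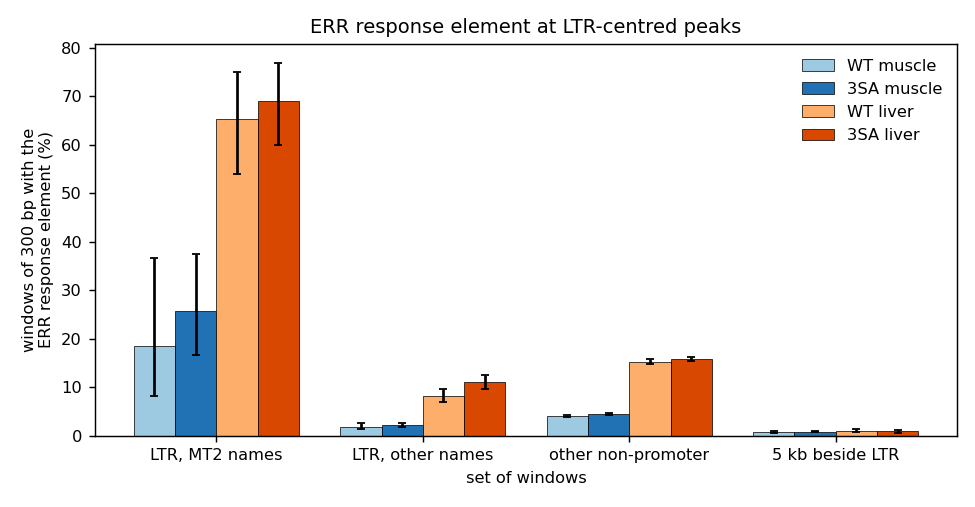
Share of 300 bp windows with the ERRE (y axis, percent) at LTR-centred peaks with MT2 names, at the other LTR-centred peaks, at the other non-promoter peaks and 5 kb beside the LTR-centred peaks (x axis), with 1 bar for each list and 95% Wilson intervals. MT2 peaks in liver stand at 65.3% and 69.1%, and the windows 5 kb away at about 1%.

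Counted over merged loci, each under the repeat name of its best-ranked peak, the ERRE was found at 510 of 9454. A locus counted when the window of any of its peaks held the ERRE. MT2C_Mm held it at 58 of 68 loci (85.3%, interval 75.003 to 91.8), MT2B2 at 34 of 45, IAPEz-int at 26 of 75, MT2B at 20 of 51, MTD at 17 of 386 and RLTR25B, an ERVK LTR, at 13 of 40. The most common names held few or none. RMER17B had 0 of 343 loci and RMER13B 0 of 242, which allows a share of up to 1.11% and 1.56% by the upper Wilson bound. Counted by peak, 1 RMER17B peak in WT liver held the ERRE in its own window. Of 196 names with at least 10 loci, 93 had no ERRE at all and the median share was 1.25%. Only MT2C_Mm, MT2B2 and IAPLTR4_I were above 50% among these names.

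MT2C_Mm peaks were more numerous in the liver lists. WT muscle held 1 such peak, without the ERRE. ERRα 3SA muscle held 11, of which 9 had the ERRE, WT liver 32 with 29, and ERRα 3SA liver 41 with 35. In liver 17 of the 32 WT peaks had a partner in ERRα 3SA. MT2B2 was found 10 times in muscle of WT mice, 8 times in ERRα 3SA muscle, 11 times in liver of WT mice and 24 times in that of ERRα 3SA mice, with the ERRE in 5, 6, 9 and 21 of them. IAPEz-int was spread more evenly, with 15, 41, 16 and 18 peaks in the same order, of which 2, 9, 8 and 9 had the ERRE.

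Copies of these flanked elements elsewhere in the genome were mostly not called. GRCm38 holds 57821 copies of TCAAGGTCA on its assembled chromosomes, of which 16.0% lay in a called interval of at least 1 list. The sequence with MT2C_Mm flanks, allowing 4 of the 20 flanking bases to differ from the most common ones, occurred 919 times and lay in a called interval at 71 places (7.73%, interval 6.17 to 9.63). Allowing 2 differences, an alternative chosen after the data were seen, it was called at 46 of 360 places (12.8%). With 4 allowed, it was called at 1 place in muscle of WT mice, 13 in ERRα 3SA muscle, 34 in liver of WT mice and 52 in that of ERRα 3SA mice. With IAPEz-int flanks it occurred 341 times and was called at 45 places (13.2%), all of them within LTR-centred ERVK peaks. The authors kept only uniquely aligned reads, and how far this lowered the share of near-identical copies was not tested.

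The MT2B2 flank was not limited to MT2 elements. It occurred 1971 times in the genome, and of the 98 copies called in ERRα 3SA liver 24 lay in peaks centred in MT2 elements, 15 in ERVK, 17 in SINEs of the Alu family, which in the mouse are B1 elements, and 34 in intervals centred in other repeats or in none. The most common flanking bases of MT2B loci were the same as those of MT2B2. Peaks centred in SINEs of any family held the ERRE in 43.3% of 2586 WT cases and 42.7% of 3439 ERRα 3SA cases in liver, against 10.6% and 14.2% of LTR-centred peaks.

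Other motifs marked other LTR names. The forkhead motif TGTTTAC was found in 124 LTR-centred peaks in WT muscle (6.40%) and 307 in ERRα 3SA muscle (6.73%), against 2.22% of the other non-promoter peaks in both lists and 4.51% and 4.62% of the windows 5 kb away. In liver it was in 5.08% and 4.67%, against 3.22% and 3.31% of the other non-promoter peaks and 4.89% and 3.64% of the windows 5 kb away, with intervals that overlapped those of the windows. In muscle it was in 59 of 176 peaks with IAP names in WT and 165 of 390 in ERRα 3SA, and in 3.69% and 3.40% of the remaining LTR-centred peaks. By locus it was in 62 of 100 IAPLTR2_Mm copies, 44 of 82 IAPEY2_LTR, 38 of 52 IAPLTR2b and 36 of 43 IAPEY_LTR. None of the IAPEY2_LTR, IAPLTR2b and IAPEY_LTR loci held the ERRE.

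The reversed control ACTGGAACT was in 0.267% to 0.355% of the other non-promoter peaks, below its share in LTR-centred peaks in every list. By name, 120 of 198 MTA_Mm loci and 38 of 81 MTB loci carried these letters. A called interval of at least 1 list held 2.05% of all 43190 copies of ACTGGAACT in the genome, against 16.0% of the ERRE copies. The shorter core AAGGTCA was in 8.35% and 8.65% of LTR-centred peaks in WT and ERRα 3SA muscle and 25.1% and 31.9% in liver, against 13.4%, 14.5%, 35.1% and 37.6% of the other non-promoter peaks. A pair of AGGTCA letters 1 base apart, the direct repeat bound by receptor dimers, was in 1, 3, 1 and 2 LTR-centred peaks. The E-box CAGCTG was in 20.5%, 20.4%, 18.5% and 17.8%, against 22.6%, 22.9%, 19.4% and 19.3% of the other non-promoter peaks. The site of activator protein 1, TGANTCA, was in 6.70% to 9.22% of LTR-centred peaks and 7.18% to 8.48% of all peaks, and the MEF2 site in 2.99% to 4.57% and 3.07% to 3.62%. All motifs were searched on both strands.

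**Figure D3:**
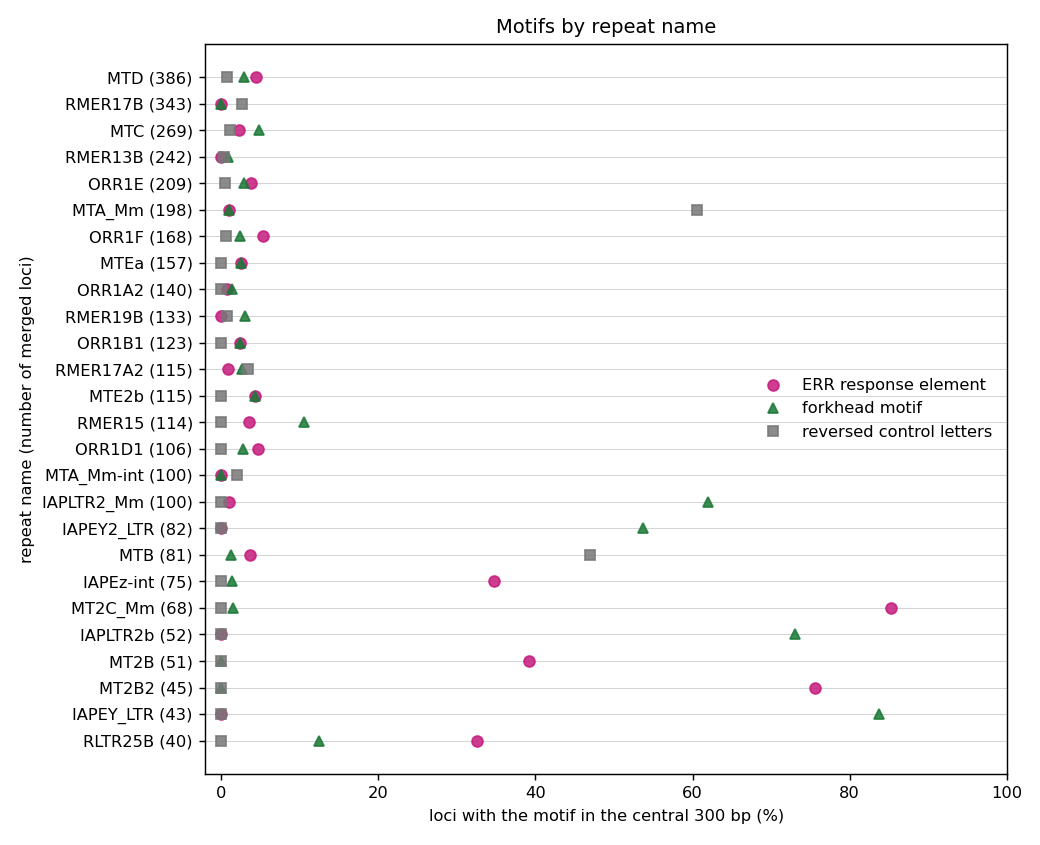
Share of merged loci (x axis, percent) with the ERRE, the forkhead motif and the reversed control letters, for the repeat names with at least 100 loci, among the most frequent of a list or with the most loci of 1 of these motifs (y axis, with the number of loci). MT2C_Mm and MT2B2 are far right for the ERRE, IAP LTRs for the forkhead motif, and MTA_Mm and MTB for the control.

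Few LTR-centred peaks were found in both genotypes. A peak with a centre within 300 bp was present in the other genotype for 231 LTR-centred peaks in muscle of WT mice (11.9%), 230 in ERRα 3SA muscle (5.04%), 491 in liver of WT mice (27.4%) and 475 in that of ERRα 3SA mice (23.4%). Over all peaks these shares were 20.2% in muscle of WT mice, 10.1% in ERRα 3SA muscle, 42.9% in liver of WT mice and 32.2% in that of ERRα 3SA mice. The share rose with the score in every list. In WT liver it went from 8.75% of 926 LTR-centred peaks at scores of 30 to 39 to 89.7% of 174 at 100 or more, where the other non-promoter peaks stood at 17.4% and 87.6%. In ERRα 3SA muscle it went from 2.85% of 3088 to 60.3% of 73. At scores under 50 the LTR-centred peaks had a lower share than the other non-promoter peaks in all 4 lists. At 50 to 69 it was 22.7% against 35.8% in WT muscle and 43.0% against 60.5% in WT liver, with intervals that did not overlap. In ERRα 3SA it was 10.3% against 14.1% in muscle and 27.1% against 31.2% in liver, with overlapping intervals. At 100 or more the intervals of both sets overlapped in all 4. In ERRα 3SA liver they overlapped at 30 to 39 (6.04% and 7.71%) and at 40 to 49 (12.5% and 15.4%) too.

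**Figure D4:**
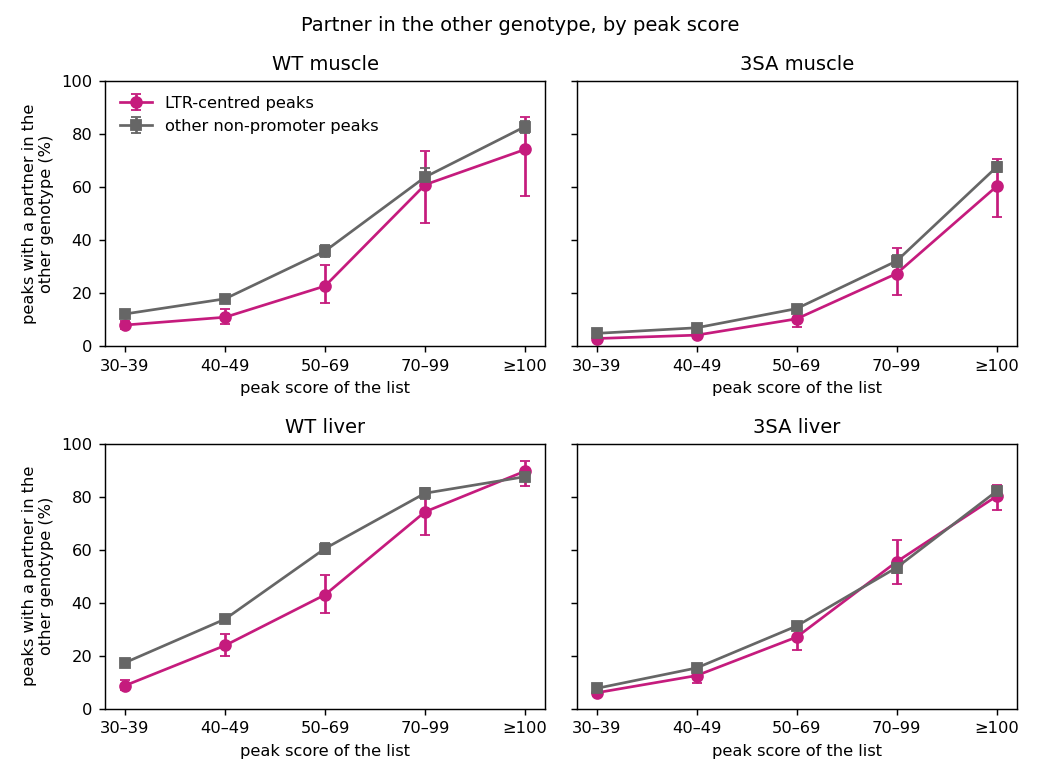
Share of peaks with a partner in the other genotype (y axis, percent) by score bin (x axis) for LTR-centred and other non-promoter peaks in each list, with 95% Wilson intervals. Both curves climb with the score, and the LTR-centred peaks lie lower in the lower bins, as at 8.75% against 17.4% in WT liver.

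Peaks with the ERRE were found in both genotypes more often. Of LTR-centred peaks with the ERRE, 17 of 40 in muscle of WT mice (42.5%), 14 of 116 in ERRα 3SA muscle (12.1%), 124 of 190 in liver of WT mice (65.3%) and 126 of 288 in that of ERRα 3SA mice (43.8%) had a partner. Without the ERRE the shares were 11.3%, 4.86%, 22.9% and 19.99%. The ERRE share of LTR-centred peaks also rose with the score, in WT liver from 5.83% at 30 to 39 to 24.7% at 100 or more. The split by ERRE was not made within score bins or for other peaks, so it cannot be told apart from score or called particular to LTRs. By family, ERVL had the highest partner share in liver, at 43.2% in WT and 31.8% in ERRα 3SA, and ERVK the lowest, at 18.2% and 18.4%. In WT muscle ERVK had the highest, at 14.2% of 907 peaks, and in ERRα 3SA muscle ERVL, at 6.53% of 352 against 5.99% for ERVK. Where a partner was present, it was itself LTR-centred in 80.1% of cases in muscle of WT mice, 80.4% in ERRα 3SA muscle, 72.5% in liver of WT mice and 74.9% in that of ERRα 3SA mice, and had the same repeat name in 76.2%, 76.5%, 69.7% and 72.0%.

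Partners between the tissues of 1 genotype were fewer than partners between genotypes, other than for ERRα 3SA muscle. Of LTR-centred peaks, 127 in muscle of WT mice (6.55%) and 119 in liver of WT mice (6.65%) had a partner in the other tissue, as did 238 in ERRα 3SA muscle (5.21%) and 234 in ERRα 3SA liver (11.5%). Over all peaks the shares were 11.7% in muscle of WT mice, 11.5% in ERRα 3SA muscle, 13.6% in liver of WT mice and 20.1% in that of ERRα 3SA mice. Of the 9454 loci, 4186 were LTR-centred in ERRα 3SA muscle alone, 1686 in muscle of WT mice alone, 1557 in ERRα 3SA liver alone and 1309 in liver of WT mice alone. In all 92.4% of the LTR loci were LTR-centred in 1 list only, where all peaks merged in the same way gave 103198 loci, 84.1% of them in 1 list. By list those in 1 list came to 17.8%, 44.3%, 13.8% and 16.5% of LTR loci and 18.01%, 39.6%, 10.4% and 16.1% of all loci. An LTR locus of 1 list may have a peak in another list that was not centred in the LTR. Both liver lists and no other held 270 loci, and both muscle lists and no other held 116. The ERRE was at 32.2% of the 270 liver loci and 5.17% of the 116 muscle loci, against 6.65% of those in WT liver alone and 1.25% of those in WT muscle alone. A locus counted when the window of any of its peaks held the ERRE, so shared loci had more windows than those of 1 list. How much of the contrast came from this or from score was not tested, and it was not counted for all merged peaks.

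**Figure D5:**
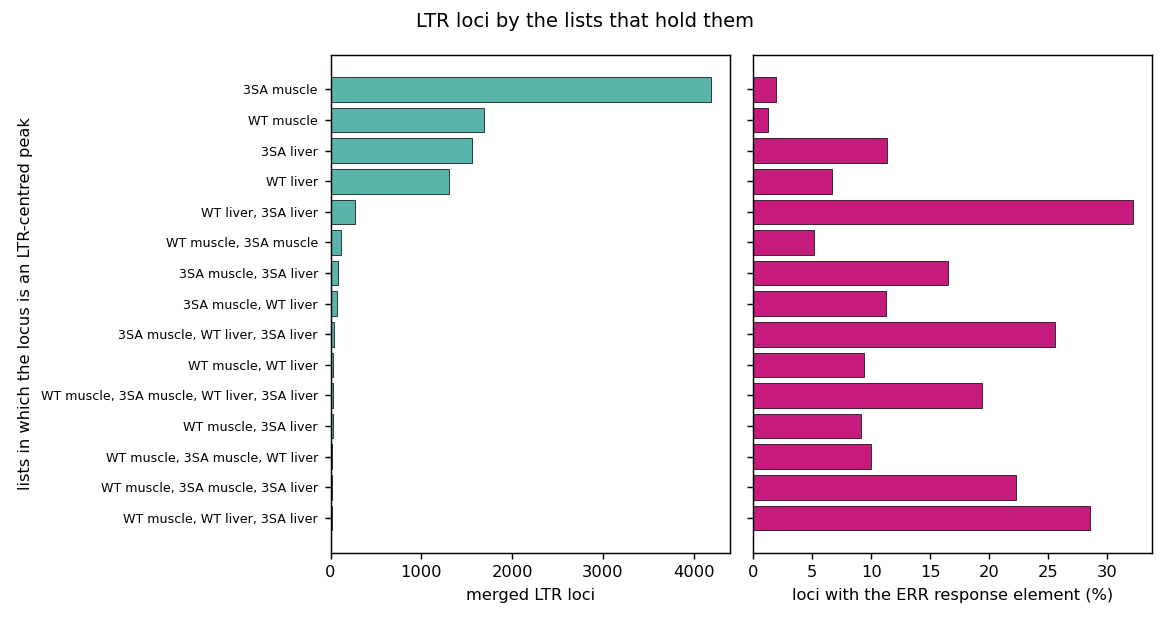
Number of merged LTR loci (left, x axis) and share of them with the ERRE (right, x axis, percent) for each set of lists that hold the locus as an LTR-centred peak (y axis). Most loci are in 1 list, with 4186 in ERRα 3SA muscle alone, and the ERRE share is 32.2% for loci shared by both liver lists. A locus counts when the window of any of its peaks holds the ERRE, so shared loci have more windows.

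All 4 lists held 31 loci, of which 15 were ERVK, 8 ERVL-MaLR, 5 ERV1 and 3 ERVL. The ERRE was within the window of 6 of them, and 9 lay within 20 kb of a start site. The locus with the best ranks was an RLTR33 element in an intron, 2366 bp from the start site of Aida, an inhibitor of JNK signalling, at chr1:183299279-183299573 in WT muscle. It ranked 129 in muscle of WT mice, 92 in ERRα 3SA muscle, 84 in liver of WT mice and 331 in that of ERRα 3SA mice, had no ERRE, and was 295 bp wide in muscle of WT mice, where the narrowest interval was 293 bp. A MER31B element -8283 bp from Crygb, a lens crystallin gene, ranked 639, 557, 116 and 132 in the same order, again without the ERRE. Next came loci near Daglb, a lipase, Prkca, a protein kinase C, and Cyp2c29, a liver cytochrome P450, which had a pair of MTA_Mm-int loci on the list. The remaining loci by sum of ranks were nearest to 1700123M08Rik, 2210409E12Rik, E2f6, a transcriptional repressor, and Psme4, a proteasome activator. Of these 10 loci only that near 1700123M08Rik held the ERRE, in WT muscle and ERRα 3SA liver.

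LTR-centred peaks within 20 kb of a start site numbered 616 in muscle of WT mice, 1383 in ERRα 3SA muscle, 668 in liver of WT mice and 859 in that of ERRα 3SA mice, nearest to 599, 1293, 647 and 811 genes. In WT muscle the highest-scoring ones were an LTR16A element in an intron 8286 bp from Zdhhc20, a protein palmitoyltransferase, at rank 84, and the elements near Hdac7, Aida, Hnrnpu (rank 301) and Mir1963 (rank 315). In ERRα 3SA muscle Aida, Hnrnpu and Mir1963 were again among the first 5, with Mcur1, a regulator of mitochondrial calcium uptake, and 5830418P13Rik, both at rank 366 with a score that 16 peaks shared. In WT liver the first 5 were near Aida, Crygb, 4930459C07Rik (rank 293), Bnip1, a protein of membrane fusion at the endoplasmic reticulum (rank 320), and Acaa1b, a peroxisomal thiolase of fatty acid oxidation (rank 415).

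In ERRα 3SA liver an RMER10B element -2363 bp from Nlrc5, an activator of MHC class I genes, stood at rank 4 of 29040. Its interval was 1671 bp wide and held no ERRE in its central window. No WT liver centre lay within 300 bp, but the interval overlapped a WT peak at rank 9. The others were near Chrne, Crygb, Agt, the gene of angiotensinogen, at rank 180, and Thrap3, an RNA-processing protein, at rank 184.

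Within 20 kb of a start site, 9 LTR-centred peaks in WT muscle and 66 in WT liver held the ERRE and had a partner in ERRα 3SA. The 6 with the best WT rank in muscle were nearest to Hdac7, Hnrnpu, Mcur1, Pink1, Clstn1 and Isca1. Pink1 encodes the kinase that starts removal of damaged mitochondria. The MLT2D element in an intron 2295 bp from its start ranked 1805 in WT muscle and 1773 in the mutant list. The RMER10A element -1050 bp from Mcur1 ranked 951 in WT and 366 in ERRα 3SA. For Isca1, an iron-sulfur cluster assembly gene, the WT peak, centred in MT2B2, ranked 10219. Its ERRα 3SA partner, centred in ORR1A3, ranked 32824 with the lowest score of 30, which 17824 peaks shared. In liver the 6 with the best WT rank were nearest to Acaa1b, Olfr1396, Fam210b, Slc7a1, Yeats4 and Kng2. The MTD element 14920 bp from Acaa1b ranked 415 in WT and 407 in ERRα 3SA. That near Kng2, the gene of kininogen 2, was an RLTR13D2 element at -1912 bp, with rank 1236 in WT and 576 in ERRα 3SA. The liver peaks near Olfr1396, Slc7a1 and Yeats4, and the muscle peak near Hdac7, were LTR-centred in WT but not in ERRα 3SA.

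The peaks called in 1 genotype only, with neither a centre within 300 bp nor a shared base in the other list, numbered 1669 in muscle of WT mice, 4290 in ERRα 3SA muscle, 1254 in liver of WT mice and 1514 in that of ERRα 3SA mice. These were 86.1%, 94.0%, 70.1% and 74.4% of LTR-centred peaks, where all peaks gave 74.3%, 87.1%, 52.1% and 64.0%. Scores of at least 100 were reached by 4, 23, 8 and 36 of them. That was 12.9%, 31.5%, 4.60% and 13.7% of the LTR-centred peaks with such scores, against 2.11%, 19.2%, 2.18% and 9.51% over all peaks. The best-ranked ones within 20 kb were near LOC105242399, Gm21190 and Gm1968 in WT muscle. In ERRα 3SA muscle they were near Capn11, a calpain gene, Nr4a3, an orphan nuclear receptor, and Speer8-ps1. The window centred in the MLT1F1 element near Capn11 held the ERRE. The MLT1L element -14048 bp from Nr4a3 ranked 1608 of 50647, with a score that 107 peaks shared. In WT liver they were near Speer4cos, AY761185 and Dopey2, and in ERRα 3SA liver near Paqr5, Pex26, which brings peroxisome assembly factors to the membrane, and Kctd9. The peak centred in the MTD element near Paqr5, a membrane progestin receptor, had the ERRE in its window and ranked 2597 of 29040.

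LTR-centred peaks within 20 kb were counted for genes of fatty acid oxidation and oxidative phosphorylation, processes in which ERRα has known targets. Over the 19188 genes named in the lists, 3.12%, 6.74%, 3.37% and 4.23% had such a peak, in the order of lists used above. Of 20 fatty acid oxidation genes, 18 of which were named in any list, these were 0 in muscle of WT mice, 2 in ERRα 3SA muscle (Cpt1a and Etfdh), 0 in liver of WT mice and 1 in that of ERRα 3SA mice (Hadh), where 12, 13, 12 and 14 of them had a peak of any kind. Of 22 oxidative phosphorylation genes they were 1 in muscle of WT mice (Cox4i1), 0 in ERRα 3SA muscle, 2 in liver of WT mice (Sdhd and Cox7a2) and 0 in that of ERRα 3SA mice, where 20, 20, 20 and 21 had a peak of any kind. None of 10 genes of the ERR receptors and their coregulators had one in any list.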

How the data were processed

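Per the labels and the study's methods, the authors trimmed reads with Trimmomatic 0.36, aligned them to mm10 with BWA 0.7.12, kept unique alignments, removed duplicates with Picard 2.0.1, called peaks against input with MACS2 2.1.1.20160309 and annotated them with HOMER 4.9.1. The deposited peak score is a whole number, and the deposited GC and CpG values are fractions of each interval. The 4 input libraries were not used here other than through the authors' peak calls. The labels give 3 pooled ChIPs per library, and the study's methods give another number, 4.

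LTR-centred peaks were taken from the deposited annotation. A partner was a centre within 300 bp. Motifs were searched in the 300 bp around the interval centre in the RefSeq GRCm38 sequence, in which the GC of all but 5 intervals matched the deposited fraction within 0.01. Loci were aligned with blastn 2.17.0. The scripts, in Python 3.11.15, were tested on simulated data. Genes were named by fixed rules on rank, sharing and distance, and repeats by number of peaks or ERRE loci. The members, lists and rules were chosen with earlier results of these data known. No test was run, and intervals are Wilson intervals for counting error. Alternatives changed the score minimum, list length, partner distance and motif window. The MTA_Mm, MTB and IAP values for the control and forkhead letters, the MT2 grouping, the genome copies and the SINE values were chosen after the data were seen. Rank is the lowest rank among tied scores.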

Additional observations from a re-analysis of the deposited data

Results flagged for a closer look

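The change in the share of peaks centred in LTRs had opposite signs in muscle and liver. From WT to ERRα 3SA it rose by 1.39 percentage points in muscle (7.63% to 9.01%) and fell by 1.20198 in liver (8.21% to 7.004%). The ERVK share rose by 0.589 points in muscle and fell by 0.851 in liver, and the ERVL-MaLR share rose by 0.747 and fell by 0.268. The ERV1 share rose by 0.0147 and fell by 0.0744. The ERVL share did not fall in liver, going from 0.976% to 0.985%, and in muscle from 0.680% to 0.695%. For ERV1 and ERVL the intervals of WT and ERRα 3SA overlapped in both tissues, as they did for ERVL-MaLR in liver. Neither the rise in muscle nor the fall in liver was limited to LTRs. Between the same lists, non-promoter peaks centred in SINEs climbed from 5.64% to 6.60% of muscle peaks. Those centred in long interspersed repeats (LINEs) dropped from 9.29% to 6.15% of liver peaks. SINEs in liver (11.86% and 11.84%) and LINEs in muscle (9.25% and 9.25%) hardly moved. With 1 library a group the difference between tissues was not tested.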

How the results depend on the processing

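No paired analysis was possible because each group has 1 library. Values follow the order WT muscle, ERRα 3SA muscle, WT liver, ERRα 3SA liver unless stated. The LTR share of all peaks was 5.05%, 5.86%, 5.63% and 5.32% at scores of at least 50, and 2.62%, 2.81%, 4.62% and 4.40% at scores of at least 100. With ERRα 3SA lists of the WT length it was 8.38% in muscle and 6.48% in liver. The ratio of ERRα 3SA to WT was 1.10 in muscle and 0.790 in liver with equal lengths, where all peaks are equal in number by construction. In liver it was 1.498 and 1.51 at scores of at least 50 and 100. The LTR share of all peaks was lower in ERRα 3SA than in WT liver at both scores (5.32% against 5.63%, and 4.40% against 4.62%). The partner share in the other genotype was 7.63%, 3.20%, 17.2% and 15.1% within 100 bp, 15.5%, 7.12%, 31.3% and 27.4% within 1000 bp, and 13.9%, 6.00%, 29.9% and 25.6% for a shared base. It was 74.2%, 60.3%, 89.7% and 80.2% for scores of at least 100, and with equal lengths 8.30% in WT muscle, 7.56% in ERRα 3SA muscle and 31.0% in ERRα 3SA liver. The partner share in the other tissue was 3.66%, 3.07%, 3.91% and 6.74% within 100 bp, 8.97%, 7.45%, 9.22% and 16.3% within 1000 bp, and for a shared base 6.42% in ERRα 3SA muscle, 8.10% of WT and 14.0% of ERRα 3SA peaks in liver. The ERRE share was 3.46%, 3.86%, 14.7% and 17.6% in the whole interval, 0.670%, 0.876%, 4.08% and 5.95% in the central 100 bp, 3.35%, 3.88%, 14.1% and 18.7% for TNAAGGTCA, and 9.68%, 16.4%, 24.7% and 27.8% at scores of at least 100. With equal lengths it was 3.57% in ERRα 3SA muscle and 17.6% in ERRα 3SA liver, and without MT2 names, an alternative chosen after seeing the data, 8.22% of WT and 11.0% of ERRα 3SA peaks in liver. At scores of at least 100 the ERVK share was 35.5%, 24.7%, 25.9% and 25.9%, and the ERVL-MaLR share 29.0% in muscle of WT mice, 47.9% in ERRα 3SA muscle and 46.6% in liver of WT mice. The other 19 values moved by less than their counting interval. Counting promoter peaks changed no value, since the annotation gave no promoter peak an LTR name. Whether promoter peaks lie in LTRs can therefore not be told from these lists. Leaving out class names with a question mark moved no share beyond its interval. Depth is unknown, and no value has a replicate, so the cause of these shifts was not tested.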

Other observations

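Chromosome X held 6 of 1939 LTR-centred peaks in WT muscle, 9 of 4564 in ERRα 3SA muscle, 6 of 1790 in WT liver and 7 of 2034 in ERRα 3SA liver. Among all peaks the X chromosome held 0.193%, 0.136%, 0.289% and 0.275%.

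Peaks centred in LINE elements of the L1 family made up 8.77% and 8.80% of all peaks in WT and ERRα 3SA muscle, and 8.81% and 5.63% in WT and ERRα 3SA liver.

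Median GC content of RMER17B peaks was 57.7% in WT muscle and 56.3% in ERRα 3SA muscle, above the median of all LTR-centred peaks at 51.5% and 51.6%. None of these muscle peaks held the ERRE.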
